A study of Mus musculus with 163 samples.

Results

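The meiotic arrest and resumption genes described here are 10 genes that act in the arrest or resumption of meiosis in mouse oocytes: Gpr3, Adcy3, Pde3a, Cdc25b, Wee2, Ccnb1, Ccnb2, Cdk1, Mos and Fzr1. They were chosen by symbol, and all 10 were found among the 21950 genes counted in 71 growing and 92 fully grown single oocytes. Their libraries were made by Smart-seq2, in which the polyadenylated RNA of 1 cell is copied at full length and amplified. Growing oocytes (GROs) comprised 23 oocytes derived from induced pluripotent stem cells (iPSCs), 24 from gonads of E12.5 embryos and 24 that grew in vivo. Fully grown oocytes (FGOs) comprised 24 iPSC-derived, 24 gonad-derived, 24 grown from follicles isolated at 6 days post partum (6 dpp) and 20 that grew in vivo.

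The iPSC-derived oocytes came from a single female line, BVSC-iPSC, with reporters for Blimp1 (Venus) and Stella (ECFP). Its primordial germ cell-like cells, made by in vitro PGC differentiation (IVP), were aggregated with gonadal somatic cells of outbred Swiss Webster embryos into rOvaries, so that some oocytes may descend from germ cells left among the gonadal cells. For gonad-derived oocytes, all cells of E12.5 gonads were reaggregated. Both sources then passed in vitro oocyte differentiation (IVD), with retinoic acid and the oestrogen receptor antagonist fulvestrant in the medium. All cultured FGOs, 6 dpp oocytes included, passed in vitro growth (IVG) with FSH, BMP15, GDF9 and a collagenase step, and this culture was slightly shorter for gonad-derived oocytes and 6 dpp follicles. In vivo oocytes were not cultured, and the age and strain of their donors are not given in the sources used here. Somatic cells and the zona pellucida had been removed from each oocyte before lysis. The labels name no animal, embryo or culture behind an oocyte, so each group counted as 1 sample and no difference between groups has a replicate check or a p-value. Levels are counts per 1000000 counts (CPM), pooled over the oocytes of a group, with an exact Poisson 95% interval that covers counting error only. The lowest, median and highest oocyte are given beside them. A level is a share of a library, so that less of a transcript and more of all other transcripts cannot be told apart.

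In a fully grown oocyte, the receptor GPR3 keeps a Gs protein and adenylyl cyclase active, and the cAMP made by ADCY3 keeps protein kinase A on. Protein kinase A supports WEE2, the oocyte kinase that places inhibitory phosphates on CDK1, and restrains CDC25B, the phosphatase that removes them. When PDE3A hydrolyses cAMP, CDK1 bound to cyclin B1 or B2 becomes active and the germinal vesicle breaks down. FZR1 (CDH1) directs the anaphase-promoting complex (APC/C) to cyclin B1 during arrest and so holds its level down, and MOS starts the MAPK cascade that keeps the egg at metaphase II. Growing oocytes cannot yet resume meiosis, and acquire this competence as they near full size. Several of these mRNAs, Ccnb1 and Mos among them, are stored with short poly(A) tails, and the protocol primes on poly(A), so that tail length can enter a level. Its part in the values below was not tested.

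Libraries held from 2.17 to 13.7 M counts (M, 1000000), with a median of 6.93 M, and the half-width of the counting interval of a pooled level was between 0.378% (Wee2) and 5.46% (Adcy3) of that level. All 12 oocyte markers checked, among them Zp3, Gdf9 and Nobox, were above 1 CPM in the GRO groups and 11 of 12 in the FGO groups, Sohlh1 being below it there. Their summed level had group medians of 45080 to 48531 CPM in GROs, 23277 to 26483 CPM in cultured FGOs and 37333 CPM in in vivo FGOs. Not every marker followed the sum. Bmp15 was higher in FGOs than in GROs from each source (5676 against 3374 CPM in vivo). Zar1 was higher in cultured FGOs (1035 to 1196 CPM) than in in vivo FGOs (862 CPM). The part of the difference in summed level in the ratios of cultured over in vivo FGOs was not tested. Summed granulosa markers had group medians between 49.5 CPM in in vivo GROs and 127 CPM in 6 dpp FGOs, with single oocytes at 1615 CPM (6 dpp FGO 12) and 411 CPM (in vivo FGO 19). Of the 9 granulosa markers measured, Cyp19a1 and Nr5a2 carried most of these counts in most groups, while Amh was at most 1.10 CPM and Amhr2 at most 0.331 CPM. Gja1 was at 60.0 CPM in 6 dpp and 30.6 CPM in in vivo FGOs, against at most 1.61 CPM in the GRO groups, but at 11.3 CPM without 6 dpp FGO 12 and 14.2 CPM without in vivo FGO 19, alternatives chosen after seeing the data. Inhba (9.91 CPM, 3.15 CPM without 6 dpp FGO 12) and Hsd17b1 (8.04 CPM, 5.69 CPM without it) were highest in 6 dpp FGOs. The summed level was higher in FGOs than in GROs from each source, as was Cyp19a1 (64.1 against 8.87 CPM in vivo). Nr5a2 and Fshr went the other way from each source, Nr5a2 being at 25.9 against 27.3 CPM in vivo. The part of the granulosa markers in the differences between stages was not tested. Summed theca and stroma markers were at most 11.9 CPM in any oocyte except 6 dpp FGO 12 (173 CPM), and summed markers of dividing cells had group medians from 470.3 CPM in iPSC-derived FGOs to 749 CPM in in vivo FGOs.

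1 library stood apart, that of gonad-derived FGO 19. Among 5704 genes with a group median of at least 20 CPM, it lay outside the range of the other 23 gonad-derived FGOs at 70.7%, against 36.0% for the next library of the series (6 dpp FGO 3). Its Cdk1 level was 3.74 CPM from 26 reads, while the other 23 oocytes lay between 190.4 and 279 CPM. Fzr1 was at 18.5 CPM (the others 103 to 189), and Mos at 684 CPM (the others 1105 to 1702). Not all members were low in it. Pde3a and Ccnb2 were the highest of the group, at 40.8 and 403 CPM, and Wee2, at 1486 CPM, lay within the others' range. The library held 6.95 M counts. Its summed granulosa markers (119 CPM) and theca and stroma markers (4.46 CPM) were within the others' ranges (86.2 to 154 CPM and 1.36 to 10.9 CPM), while its summed markers of dividing cells were above that range (1112 CPM, the others 437 to 723) and its summed oocyte markers below it (18290.1 CPM, the others 22442 to 34767). Their part in its levels was not tested. Ratios that use the gonad-derived FGOs were therefore also computed without it, an alternative chosen after seeing the data. They are printed below for Cdk1 and for the growth of Fzr1 only. The largest such move, in log2 units, was 0.0619 (Cdk1).

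**Figure D1:**
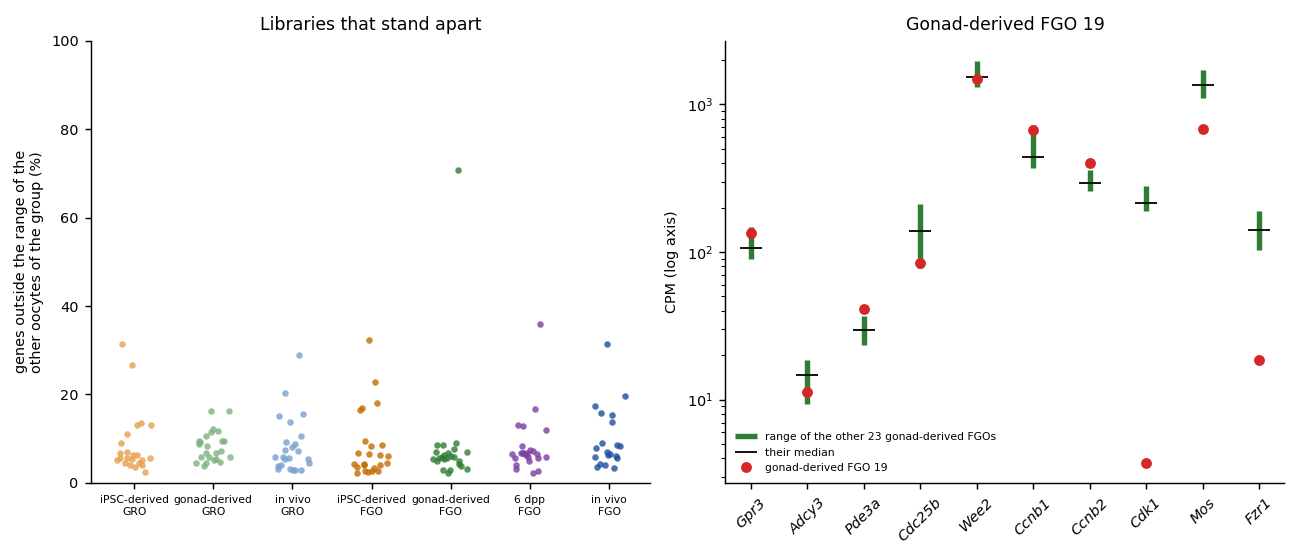
Left, for each oocyte (point) of the 7 groups, the percentage of well-expressed genes outside the range of the other oocytes of its group; right, CPM on a log axis of the 10 genes in gonad-derived FGO 19 (red point) with the range (green bar) and median (black dash) of the other 23. Gonad-derived FGO 19 is at 70.7% on the left, and its Cdk1 and Fzr1 points lie far below the bars on the right.

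The genes lie on 7 chromosomes (GRCm38.p6, RefSeq spans): Gpr3 (chr4:133209340-133212536) and Mos (chr4:3870658-3872105), Adcy3 (chr12:4133116-4213525), Pde3a (chr6:141249269-141506862) and Wee2 (chr6:40435246-40466815), Cdc25b (chr2:131186436-131198511), Ccnb1 (chr13:100778739-100786486), Ccnb2 (chr9:70407689-70421554), and Cdk1 (chr10:69335146-69352912) and Fzr1 (chr10:81366879-81378370). The deposited counts cover exons. Exons of Adcy3 share 1380 of 6246 annotated bases with the antisense gene Cenpo, which was at 74.2 to 135 CPM, and exons of Gpr3 share 204 of 2734 bases with antisense Cd164l2, at 585 to 1014 CPM. Exons of Pde3a share 741 of 12737 bases with the antisense gene Gm28523, whose counts were not analysed here, and those of Cdc25b share 92 of 3728 bases with antisense Spef1, which was at most 2.32 CPM. Smart-seq2 libraries do not mark strand, so that reads of these pairs cannot be told apart over the shared bases, and the levels of these 4 members are uncertain to that extent. In iPSC-derived GROs, where Gpr3 was low, Cd164l2 was also lowest, at 585 CPM, the GROs from gonads being at 873 CPM and those grown in vivo at 813 CPM. In iPSC-derived FGOs, where Gpr3 was low too, Cd164l2 was at 907 CPM, against 851 to 1014 CPM in the other FGO groups. Its part in the Gpr3 counts was not tested.

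The stretches around the RefSeq start sites, from 250 bases before to 50 after, are shown for 6 members: Ccnb1, Ccnb2 and Cdk1, as the subunits of the kinase, Wee2 and Fzr1, whose levels differed between stages from every source, and Gpr3, which was lower in iPSC-derived oocytes. They were taken from RefSeq on GRCm38.p6 and run 5′ to 3′ along the gene: Ccnb1 at chr13:100786437-100786736, minus strand, Ccnb2 at chr9:70421505-70421804, minus strand, Cdk1 at chr10:69352863-69353162, minus strand, Wee2 at chr6:40442613-40442912, plus strand, which lies within the RefSeq span of the gene, Gpr3 at chr4:133212487-133212786, minus strand, and Fzr1 at chr10:81378321-81378620, minus strand. Capitals mark CCAAT boxes (CCAAT, or ATTGG on the other strand), the cell cycle homology region letters TTTGAA and TTTAAA, and NOBOX elements (TAATTG or TAATTA), each searched on both strands.
Ccnb1: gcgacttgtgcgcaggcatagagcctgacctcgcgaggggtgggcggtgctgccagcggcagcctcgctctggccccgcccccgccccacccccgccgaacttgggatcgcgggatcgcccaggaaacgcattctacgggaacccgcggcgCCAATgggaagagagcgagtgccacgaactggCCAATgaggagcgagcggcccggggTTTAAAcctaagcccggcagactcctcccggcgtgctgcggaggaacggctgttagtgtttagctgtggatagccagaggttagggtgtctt
Ccnb2: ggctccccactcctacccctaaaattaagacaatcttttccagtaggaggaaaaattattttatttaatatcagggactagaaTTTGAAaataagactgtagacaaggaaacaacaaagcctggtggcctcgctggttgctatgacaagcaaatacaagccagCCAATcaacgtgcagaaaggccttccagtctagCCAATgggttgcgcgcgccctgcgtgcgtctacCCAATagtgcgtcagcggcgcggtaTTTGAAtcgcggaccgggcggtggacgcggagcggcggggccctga
Cdk1: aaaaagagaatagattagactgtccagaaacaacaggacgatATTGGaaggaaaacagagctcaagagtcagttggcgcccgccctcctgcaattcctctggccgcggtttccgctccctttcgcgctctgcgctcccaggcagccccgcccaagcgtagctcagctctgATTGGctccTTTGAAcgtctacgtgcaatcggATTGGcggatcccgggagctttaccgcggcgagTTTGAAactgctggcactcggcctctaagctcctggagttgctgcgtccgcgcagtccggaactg
Wee2: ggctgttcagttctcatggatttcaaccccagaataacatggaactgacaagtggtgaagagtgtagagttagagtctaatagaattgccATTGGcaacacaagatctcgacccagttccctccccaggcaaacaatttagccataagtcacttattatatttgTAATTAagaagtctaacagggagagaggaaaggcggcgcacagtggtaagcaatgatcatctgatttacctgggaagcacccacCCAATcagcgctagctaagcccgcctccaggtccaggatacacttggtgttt
Gpr3: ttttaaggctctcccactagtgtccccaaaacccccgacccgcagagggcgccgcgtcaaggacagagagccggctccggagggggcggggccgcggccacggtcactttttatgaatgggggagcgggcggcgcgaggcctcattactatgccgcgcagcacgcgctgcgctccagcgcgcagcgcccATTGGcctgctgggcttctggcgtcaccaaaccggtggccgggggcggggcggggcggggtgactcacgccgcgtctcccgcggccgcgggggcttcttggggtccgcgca
Fzr1: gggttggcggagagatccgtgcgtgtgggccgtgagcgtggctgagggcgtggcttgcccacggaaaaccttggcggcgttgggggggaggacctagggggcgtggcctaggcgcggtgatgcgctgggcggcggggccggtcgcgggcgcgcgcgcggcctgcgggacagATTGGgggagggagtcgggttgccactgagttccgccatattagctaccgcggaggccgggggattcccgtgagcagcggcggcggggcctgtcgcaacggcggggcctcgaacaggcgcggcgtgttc

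Ccnb2 and Cdk1 each held 3 CCAAT boxes and 2 TTTGAA matches, and Ccnb1 held 2 CCAAT boxes and 1 TTTAAA match. The CCAAT boxes lay at -87, -54 and -21 bases from the start site in Ccnb2, at -99 and -67 in Ccnb1, and at -208, -80 and -48 in Cdk1. A CCAAT box was found in 37.4% of 32851 RefSeq promoter windows of the same length, TTTGAA in 17.9% and TTTAAA in 13.2%. Wee2 held 2 CCAAT boxes and, at -86, the 1 NOBOX element found in the windows of the members; 12.4% of all windows hold one. The E-box letters CANNTG, not capitalised above, were found 3 times in Wee2, once in Cdk1 and not in Ccnb1, Ccnb2, Gpr3 or Fzr1, against 72.3% of all windows with at least 1. The Gpr3 window was 72.0% G or C and that of Fzr1 73.3%, each with 1 CCAAT box, and that of Wee2 was 46%, against a median of 52.7% over all windows. These matches describe letters only. Windows of Adcy3 and Cdc25b are not printed, and there was no entry for Mos or Pde3a.

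Levels of different genes were compared per length, as counts per 1000 bases of deposited exonic length per 1000000 counts (RPKM). Mos was the most abundant member in each of the 7 groups, at 771 to 996 pooled RPKM, and Wee2 was next, at 267 to 501 RPKM. Mos exceeded Wee2 in every oocyte except iPSC-derived FGO 13. Ccnb1 and Ccnb2 followed at 117 to 202 and 159 to 201 RPKM, Cdk1 at 64.5 to 85.9 RPKM and Fzr1 at 45.9 to 87.8 RPKM. Gpr3 (29.4 to 53.1 RPKM) and Cdc25b (29.7 to 37.8 RPKM) came next in either order, depending on the group. In in vivo FGOs, however, Gpr3 was above Fzr1 (53.1 against 45.9 RPKM), in 17 of 20 oocytes. The enzymes that make and break cAMP were lowest, Pde3a at 8.64 to 14.2 RPKM and Adcy3 at 1.45 to 2.51 RPKM. The deposited length matched no GENCODE transcript of any member, and for Pde3a it was 2146 bases against 12302 in the GENCODE coding transcript. The annotation used by the study was not checked, so the per-length order is uncertain where levels are close.

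Comparisons between groups used the log2 ratio of pooled CPM + 0.5, with a size rule of 2-fold, over genes above 1 CPM in at least 3 oocytes of the pair. Every ratio between groups below is this log2 ratio, also where a group is given as above or below another by a value, while ratios of 2 genes within an oocyte are linear. All 10 members passed that filter in all 11 comparisons, and 0 of 10 passed 2-fold in any of them. The share of all genes that passed 2-fold was 23.7% of 13148 in growth in vivo (in vivo FGOs over in vivo GROs), 22.0% in growth of iPSC-derived oocytes and 15.8% in growth of gonad-derived oocytes. Among GROs it was 3.83% for iPSC-derived over gonad-derived oocytes (IVP@GRO), 7.04% for gonad-derived over in vivo oocytes (IVD@GRO) and 9.99% for iPSC-derived over in vivo oocytes. Among FGOs it was 6.21% for iPSC-derived over gonad-derived oocytes (IVP@FGO), 2.59% for gonad-derived over 6 dpp oocytes (IVD@FGO) and 4.38% for 6 dpp over in vivo oocytes (IVG@FGO). Over in vivo FGOs it was 5.58% for gonad-derived and 14.5% for iPSC-derived FGOs. In growth in vivo, the median size of the log2 ratio, sign aside, was 0.25 over the members and 0.52 over all genes, and between iPSC-derived and in vivo FGOs it was 0.16 over the members and 0.40 over all genes.

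Groups that did not overlap, with every oocyte of one above every oocyte of the other, were found for fewer genes than the size rule in each comparison. For Wee2 alone of the members, FGOs and GROs did not overlap from any of the 3 sources, against 3.45% of genes in growth in vivo, 8.01% in growth of iPSC-derived and 3.98% in growth of gonad-derived oocytes. No member was without overlap between sources at the same stage. There the share of all genes was 0.376% in IVP@GRO, 0.130% in IVD@GRO and 1.32% for iPSC-derived over in vivo GROs. Among FGOs it was 0.489% in IVP@FGO, 0.00771% in IVD@FGO, 0.317% in IVG@FGO, 0.185% for gonad-derived over in vivo and 3.32% for iPSC-derived over in vivo FGOs. Comparisons that share a group of oocytes, such as all 3 that use in vivo FGOs as the reference, are not independent, and their values are set side by side only.

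**Figure D2:**
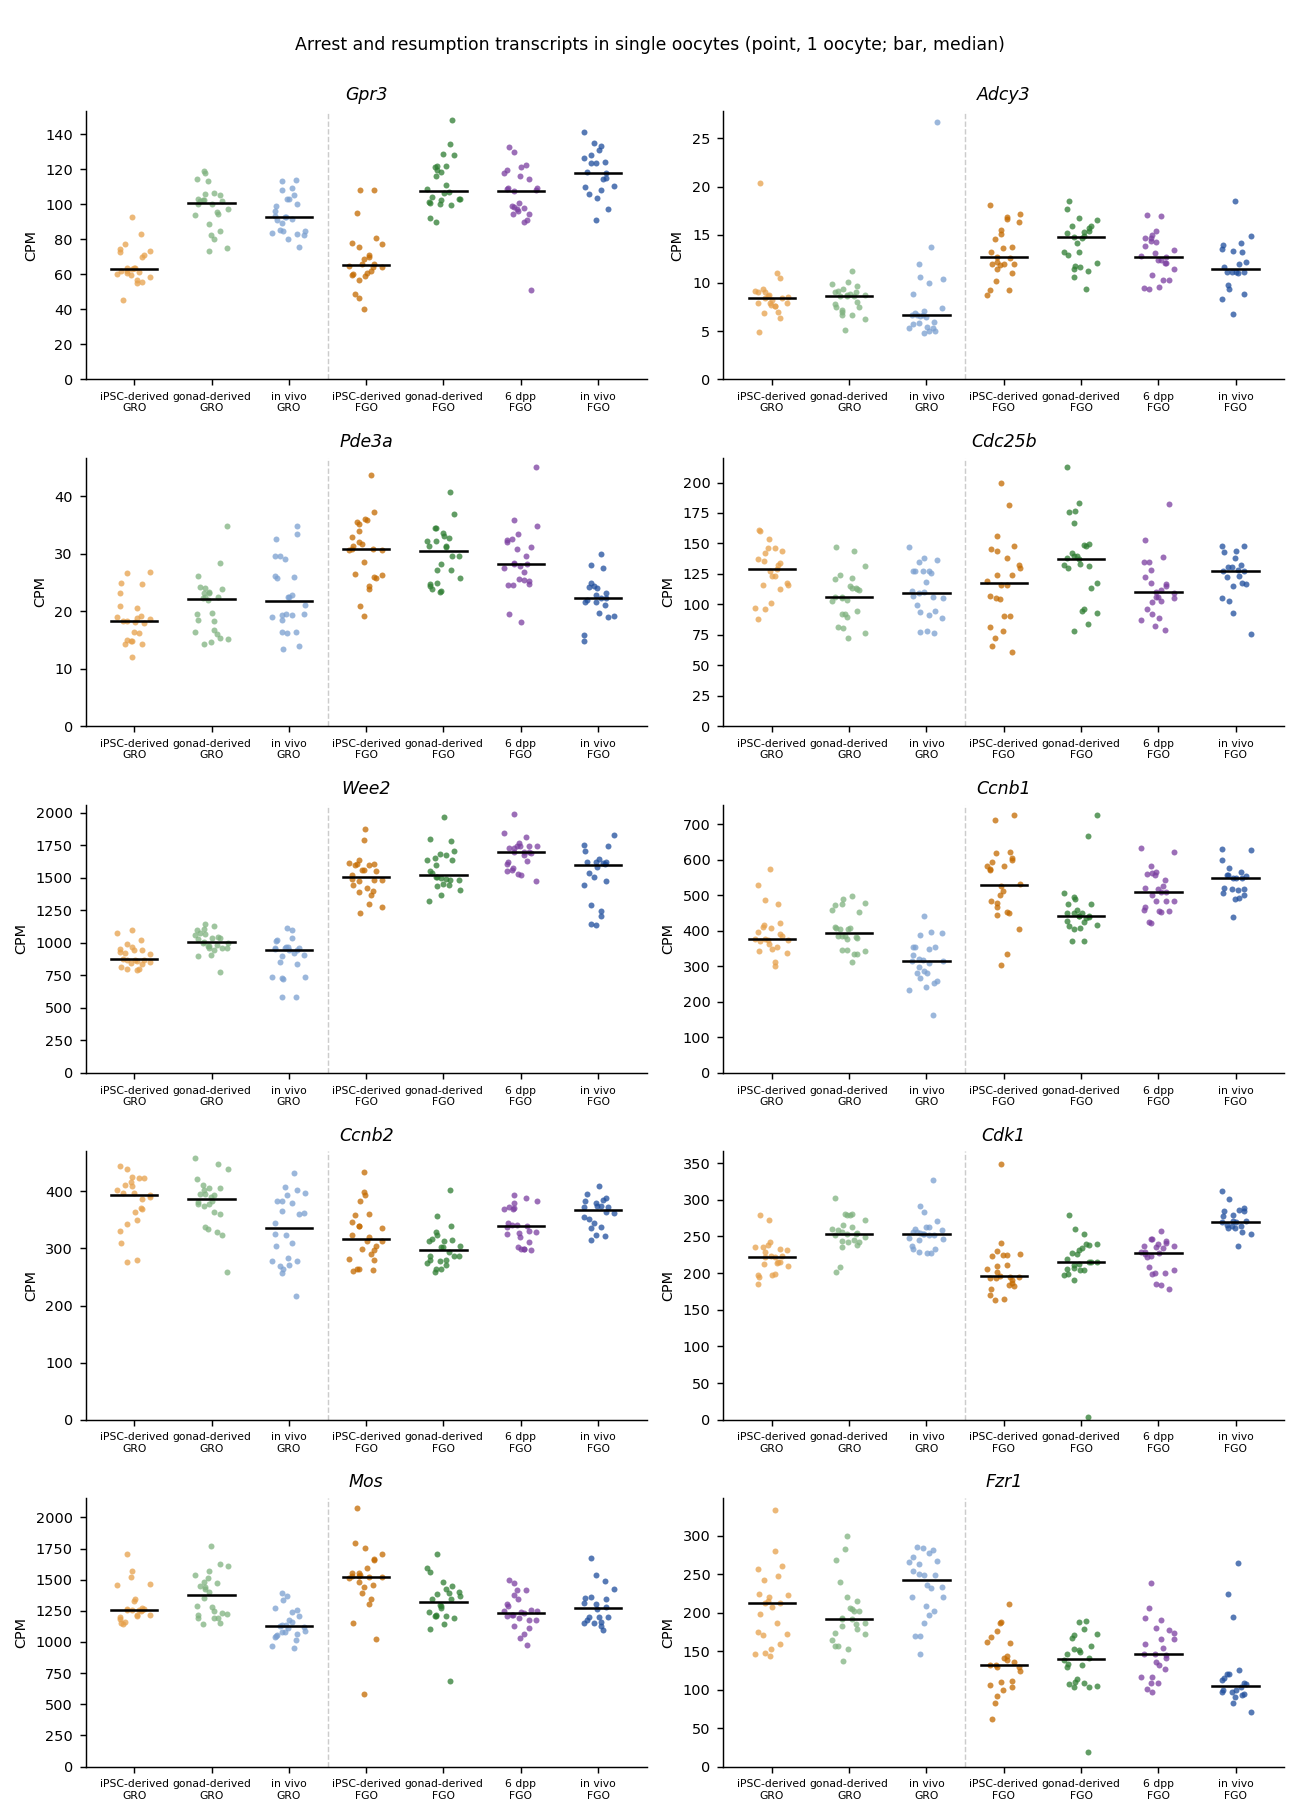
CPM of each of the 10 genes (1 panel each, linear axis from 0) in every oocyte by group; a point is 1 oocyte, the black bar the group median, and the dashed line divides GROs from FGOs. Wee2 steps up from GROs (at most 1145 CPM) to FGOs (at least 1137 CPM), Fzr1 is lower in FGOs, and Gpr3 is lowest in both iPSC-derived groups.

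On the cAMP side, Gpr3, the receptor that maintains arrest, was lower in iPSC-derived oocytes than in all other groups at both stages. The lowest, median and highest levels were 45.3, 63.0 and 93.0 CPM in iPSC-derived GROs, 73.2, 101 and 119 CPM in gonad-derived GROs and 75.8, 92.8 and 114 CPM in in vivo GROs. In FGOs they were 39.9, 65.2 and 108 CPM in iPSC-derived, 89.7, 108 and 148 CPM in gonad-derived, 50.9, 108 and 133 CPM in 6 dpp and 91.1, 118 and 141 CPM in in vivo oocytes. The iPSC-derived oocytes thus lay at the low end at each stage, but their highest oocytes reached into the other groups. The pooled level of iPSC-derived GROs was 65.4 CPM (95% interval 64.2 to 66.6), against 98.6 CPM (95% interval 97.1 to 100.2) in gonad-derived GROs. The log2 ratio was -0.59 (counting interval -0.62 to -0.55), and 19 of 23 iPSC-derived GROs were below every gonad-derived GRO. Among FGOs, the ratio of iPSC-derived over gonad-derived oocytes was -0.71 (68.7 against 112 CPM), with 21 of 24 iPSC-derived oocytes below every gonad-derived one. A ratio larger in size than that of Gpr3 was found for 12.7% of all genes in IVP@GRO and 14.0% in IVP@FGO. Against in vivo oocytes, the iPSC-derived ratio was -0.52 in GROs and -0.78 in FGOs, the latter between -0.82 and -0.75 when any single oocyte was left out. Gonad-derived FGOs (-0.07) and 6 dpp FGOs (-0.16) were near in vivo FGOs. With growth, Gpr3 was slightly higher, by 0.33 in vivo, 0.19 in gonad-derived (0.09 as a ratio of medians) and 0.07 in iPSC-derived oocytes.

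Adcy3, the adenylyl cyclase that answers to GPR3 in mouse oocytes, had the lowest level of the members and was higher in FGOs from every source. GROs had lowest, median and highest levels of 4.91, 8.39 and 20.3 CPM (iPSC-derived), 5.08, 8.61 and 11.2 CPM (gonad-derived) and 4.80, 6.65 and 26.7 CPM (in vivo). FGOs had 8.74, 12.6 and 18.0 CPM (iPSC-derived), 9.36, 14.7 and 18.5 CPM (gonad-derived), 9.41, 12.7 and 17.1 CPM (6 dpp) and 6.75, 11.4 and 18.5 CPM (in vivo). Single GROs, in vivo GRO 3 and iPSC-derived GRO 8, were above every FGO, and no FGO group was above all GROs. The FGO over GRO ratio was 0.50 in vivo (counting interval 0.40 to 0.61), 0.55 in iPSC-derived and 0.72 in gonad-derived oocytes, where 22 of 24 FGOs exceeded every GRO. In vivo it moved to 0.65 without in vivo GRO 3. Among sources at 1 stage the Adcy3 ratios lay between -0.10 and 0.25, or between -0.21 and 0.36 as ratios of medians. Without in vivo GRO 3, the ratio over in vivo GROs was 0.18 in place of 0.03 for gonad-derived and 0.25 in place of 0.10 for iPSC-derived GROs. The antisense gene Cenpo was also higher in FGOs (135 against 74.2 CPM in vivo), and its part in the Adcy3 counts was not tested.

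Pde3a, the phosphodiesterase whose activity ends arrest, differed between stages in culture and hardly in vivo. In vivo, the lowest, median and highest levels were 13.4, 21.8 and 34.8 CPM in GROs and 14.9, 22.3 and 29.9 CPM in FGOs, and the ratio was -0.01 (counting interval -0.08 to 0.05), with a sign that changed under TMM scaling, medians, geometric means and equal depth. In iPSC-derived oocytes the levels were 12.1, 18.4 and 26.8 CPM in GROs and 19.3, 30.9 and 43.8 CPM in FGOs, a ratio of 0.70, and 16 of 24 FGOs lay above every GRO. Gonad-derived oocytes had 14.3, 22.1 and 34.9 CPM in GROs and 23.3, 30.4 and 40.8 CPM in FGOs, a ratio of 0.50. At the fully grown stage the 3 cultured groups were close to each other, 6 dpp FGOs having 18.0, 28.2 and 45.1 CPM, and all were above in vivo FGOs. Pooled Pde3a was 30.5 CPM (95% interval 29.6 to 31.3) in iPSC-derived, 30.1 CPM in gonad-derived, 29.1 CPM in 6 dpp and 22.5 CPM (95% interval 21.8 to 23.3) in in vivo FGOs. The ratios over in vivo FGOs were 0.43, 0.41 and 0.36, and 15, 12 and 9 of 24 oocytes were above every in vivo FGO. The remaining oocytes overlapped. A ratio larger in size was found for 35.8% of all genes in IVG@FGO.

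Wee2, the kinase that holds CDK1 inactive, gave the clearest separation of stages and one of the smallest spreads. In GROs the lowest, median and highest levels were 788, 875 and 1098 CPM in iPSC-derived, 779, 1006 and 1145 CPM in gonad-derived and 585, 946 and 1111 CPM in in vivo oocytes. In FGOs they were 1227, 1509 and 1879 CPM in iPSC-derived, 1319.5, 1522 and 1972 CPM in gonad-derived, 1479, 1697 and 1994 CPM in 6 dpp and 1137, 1599 and 1832 CPM in in vivo oocytes. Taken over all sources, 90 of 92 FGOs were above all 71 GROs. The 2 ranges met at gonad-derived GRO 24 (1145 CPM) and in vivo FGO 7 (1137 CPM). Growth ratios were 0.75 in vivo (1512 over 897 pooled CPM, 1.69-fold), 0.74 in iPSC-derived (1.67-fold) and 0.63 in gonad-derived oocytes (1.55-fold). Counting intervals were narrow, 0.74 to 0.76 in vivo, and leaving out any single oocyte kept the ratio between 0.73 and 0.77 in vivo. In growth in vivo 15.0% of all genes had a higher ratio, so that its size was not unusual beside its lack of overlap. Between sources Wee2 differed less than between stages. Gonad-derived GROs were above in vivo GROs by 0.17 and iPSC-derived GROs below gonad-derived GROs, at a ratio of -0.16, and 6 dpp FGOs were above in vivo FGOs by 0.16. As ratios of medians, the first and the last of these were both 0.09, and in vivo GROs 17 and 19, at 585 CPM each, were the lowest of their group. These 2 libraries lay outside the range of their group at 20.3% and 28.8% of well-expressed genes. The coefficient of variation (CV) over oocytes was between 6.97% and 16.1%, in each group below that of the median gene with at least 10 CPM.

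Cdc25b, the phosphatase that opposes WEE2, showed no such step. Over the 7 groups the pooled level ran only from 108 CPM in gonad-derived GROs to 137 CPM in gonad-derived FGOs, while single oocytes ran from 60.9 to 213 CPM. Growth ratios were 0.16 in vivo, -0.09 in iPSC-derived and 0.35 in gonad-derived oocytes, and the groups overlapped widely. Its CV reached 29.9% in iPSC-derived FGOs, whose lowest and highest oocytes were at 60.9 and 199.98 CPM, against 15.0% in in vivo FGOs. The Wee2 to Cdc25b ratio per length, taken within each oocyte, had a median of 8.77 in in vivo GROs and 13.1 in in vivo FGOs. In iPSC-derived oocytes it was 7.55 and 13.7, and in gonad-derived oocytes 10.0 and 12.7, and 6 dpp FGOs had the highest median, 16.3. The median mRNA balance of kinase over phosphatase was thus higher in FGOs than GROs of the same source, but single oocytes overlapped. In vivo it ran from 4.68 to 13.1 in GROs and from 9.46 to 26.1 in FGOs. The ranges were 5.43 to 12.0 and 8.13 to 28.4 in iPSC-derived, and 6.63 to 15.4 and 6.68 to 22.5 in gonad-derived oocytes.

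Cdk1, the catalytic subunit, was lower in each cultured FGO group than in in vivo FGOs. The lowest, median and highest levels were 163.2, 195 and 349 CPM in iPSC-derived, 3.74, 215 and 279 CPM in gonad-derived, 178, 228 and 258 CPM in 6 dpp and 236, 270.3 and 313 CPM in in vivo FGOs. Most cultured oocytes lay below the whole in vivo range, 22 of 24 iPSC-derived, 18 of 24 gonad-derived and 16 of 24 6 dpp FGOs, but in each group some overlapped. Pooled Cdk1 was 205 CPM (95% interval 203 to 207), 214, 221 and 273 CPM (95% interval 270.5 to 276) in the same order. Ratios over in vivo FGOs were -0.41 in iPSC-derived, -0.35 in gonad-derived and -0.30 in 6 dpp oocytes. The gonad-derived ratio was -0.29 without gonad-derived FGO 19. The sum of the markers of dividing cells, mostly Cenpf, lay in the same direction. Its medians were 470.3, 557 and 493 CPM in iPSC-derived, gonad-derived and 6 dpp FGOs and 749 CPM in in vivo FGOs. Mki67 lay the same way as Cenpf, but Rrm2 lay the other way, at 165, 150 and 151 CPM against 118 CPM. The part of these markers in the Cdk1 differences was not tested. iPSC-derived FGO 13, the highest of its group, was above every in vivo FGO. In GROs the levels were 185, 223 and 279 CPM (iPSC-derived), 202, 254 and 302 CPM (gonad-derived) and 227, 253 and 328 CPM (in vivo), and iPSC-derived GROs were below in vivo GROs by a ratio of -0.19 while gonad-derived ones were level with them (-0.01). Growth ratios had opposite signs, 0.10 in vivo against -0.13 in iPSC-derived and -0.25 in gonad-derived oocytes, the last -0.18 without gonad-derived FGO 19. Gonad-derived over 6 dpp FGOs (IVD@FGO) gave -0.04 with that oocyte and 0.02 without it. In IVG@FGO a ratio larger in size than that of Cdk1 was found for 42.5% of all genes.

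Ccnb1, the cyclin whose accumulation activates CDK1, was higher in FGOs than in GROs, with the largest ratio in vivo. In vivo, the lowest, median and highest levels were 163.3, 315 and 443 CPM in GROs and 439.7, 548 and 629 CPM in FGOs, and 19 of 20 FGOs were above every GRO. The ratio was 0.79 (pooled 541 CPM (95% interval 537 to 545) over 313 CPM (95% interval 310.2 to 316), 1.73-fold). In culture the stages overlapped more: iPSC-derived oocytes had 302, 378 and 575 CPM in GROs and 305, 529 and 726 CPM in FGOs, and gonad-derived oocytes 312, 395 and 497 CPM and 370.2, 442 and 727 CPM. Their growth ratios were 0.41 and 0.17. The stages started from different levels. Cultured GROs were above in vivo GROs, by 0.34 in iPSC-derived and 0.37 in gonad-derived oocytes. The study reports larger diameters in both cultured GRO groups than in in vivo GROs. It also reports gene clusters that were raised in cultured GROs even at matched diameter, while genes that rise with growth were not raised in general. Whether those clusters hold a member was not checked here. Diameters were not analysed here, so that source and size within a stage cannot be told apart, for Ccnb1 or any other member. By contrast, iPSC-derived and 6 dpp FGOs (421, 509 and 632 CPM) were near in vivo FGOs, at -0.03 and -0.07. Gonad-derived FGOs were lower, at -0.25, and 10 of 24 lay below every in vivo FGO.

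Ccnb2, which can take the place of cyclin B1 in starting meiosis, did not follow Ccnb1. The lowest, median and highest levels were 277, 394 and 445 CPM, 259.5, 386 and 458 CPM and 218, 335 and 432 CPM in iPSC-derived, gonad-derived and in vivo GROs. In FGOs they were 260.1, 317 and 435 CPM in iPSC-derived, 259, 298 and 403 CPM in gonad-derived, 297, 339 and 393 CPM in 6 dpp and 314, 368 and 409 CPM in in vivo oocytes. All groups overlapped, and the gonad-derived FGOs were lowest. Growth ratios were 0.12 in vivo and -0.24 and -0.35 in iPSC-derived and gonad-derived oocytes, and the signs held under all alternatives. Against in vivo FGOs the ratios were -0.17 (iPSC-derived), -0.26 (gonad-derived) and -0.08 (6 dpp), with 12, 17 and 6 of 24 oocytes below every in vivo FGO.

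Within single oocytes, the cyclin that was more abundant per length therefore differed between stages. The ratio of Ccnb1 to Ccnb2 RPKM had a median of 0.716 in iPSC-derived, 0.743 in gonad-derived and 0.653 in in vivo GROs. For FGOs the median was 1.06 after growth in vivo, 1.09 for 6 dpp oocytes, 1.04 for gonad-derived oocytes and 1.18 for iPSC-derived oocytes. Ccnb1 exceeded Ccnb2 in 1 of 71 GROs and 65 of 92 FGOs. The value at which the 2 are called equal rests on the deposited lengths, while the order of the groups does not. The spread was widest in iPSC-derived FGOs, from 0.542 in FGO 13 to 1.92 in FGO 2. Ccnb1 over Cdk1 per length had medians of 1.504 in in vivo GROs and 2.33 in in vivo FGOs, and was highest in iPSC-derived FGOs, at 3.10.

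Mos, the kinase upstream of MAPK, varied little between groups for its abundance. Pooled levels ran from 1147 CPM in in vivo GROs to 1483 CPM in iPSC-derived FGOs. GROs had lowest, median and highest levels of 1147, 1256 and 1703 CPM (iPSC-derived), 1148, 1378 and 1773 CPM (gonad-derived) and 950.2, 1127 and 1392 CPM (in vivo), and FGOs 580.4, 1525 and 2078 CPM (iPSC-derived), 684, 1319.6 and 1702 CPM (gonad-derived), 976, 1233 and 1493 CPM (6 dpp) and 1099, 1274 and 1677 CPM (in vivo). All groups overlapped. The 2 lowest oocytes of the series were iPSC-derived FGO 13 and gonad-derived FGO 19, both among the libraries farthest from their group. Both cultured GRO groups were above in vivo GROs, gonad-derived by 0.25, with 12 of 24 oocytes above every in vivo GRO, and iPSC-derived by 0.18. Growth ratios were 0.18 in vivo, 0.19 in iPSC-derived (0.28 as a ratio of medians) and -0.06 in gonad-derived oocytes. The last kept its sign without gonad-derived FGO 19, whose removal moved no pooled ratio by more than 0.0619. iPSC-derived FGOs exceeded in vivo FGOs by 0.19 and gonad-derived FGOs by 0.17.

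Fzr1, the APC/C activator that keeps cyclin B1 low during arrest, was lower in FGOs from every source and spread widely among them. In GROs the lowest, median and highest levels were 144, 212 and 333 CPM in iPSC-derived, 137, 192 and 300.2 CPM in gonad-derived and 146, 243 and 285 CPM in in vivo oocytes. In FGOs they were 61.2, 132 and 212 CPM in iPSC-derived, 18.5, 139 and 189 CPM in gonad-derived, 97.4, 146 and 238 CPM in 6 dpp and 70.8, 105 and 265 CPM in in vivo oocytes. Over all sources 51 of 92 FGOs lay below all 71 GROs, and the others overlapped with them. In vivo the ratio was -0.93 (pooled 122 CPM (95% interval 120.0 to 124) over 233 CPM (95% interval 231 to 235)), so that the GRO level was 1.91-fold the FGO level, just inside the 2-fold rule. 17 of 20 in vivo FGOs were below every in vivo GRO. The remaining 3, in vivo FGOs 5, 19 and 7, were at 265, 224 and 194 CPM and gave this group the highest Fzr1 CV, 40.6%. Their Wee2 levels were 1246, 1144 and 1137 CPM, against a group median of 1599 CPM. In vivo FGO 7 lay outside the range of its group at 31.4% of well-expressed genes. In vivo FGO 19 is also the oocyte with the most granulosa marker counts of its group (411 CPM), and the part of that signal was not tested. The ratio of medians was -1.20, and without in vivo FGO 5 the pooled ratio was -1.02, both past 2-fold. In culture the growth ratios were -0.62 in iPSC-derived and -0.55 in gonad-derived oocytes, the latter -0.50 without gonad-derived FGO 19. The 3 cultured FGO groups were above in vivo FGOs by 0.16 (iPSC-derived), 0.16 (gonad-derived) and 0.31 (6 dpp), or by 0.33, 0.40 and 0.47 as ratios of medians. Without in vivo FGO 5 the iPSC-derived ratio was 0.24 and the gonad-derived ratio 0.25. The gonad-derived ratios include gonad-derived FGO 19, at 18.5 CPM, whose removal moved no pooled ratio by more than 0.0619.

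When the 7 groups are put in order of the pooled level of a gene, most neighbours in that order do not differ beyond the spread over oocytes. For 5 members, Pde3a, Cdc25b, Ccnb2, Mos and Fzr1, no pair of neighbours had interquartile ranges that were apart. For Gpr3 the break lay between in vivo GROs (94.0 CPM) and iPSC-derived FGOs (68.7 CPM), below which stood only iPSC-derived GROs. For Adcy3 it lay between the lowest FGO group, in vivo (11.7 CPM), and the highest GRO group, iPSC-derived (8.77 CPM). Wee2 had its break between iPSC-derived FGOs (1510.2 CPM) and gonad-derived GROs (1011 CPM), the 1 pair of neighbours of any member without overlap, and gonad-derived GROs were also apart from iPSC-derived GROs. Ccnb1 had its break at the low end, between iPSC-derived (397 CPM) and in vivo GROs (313 CPM). Cdk1 was apart at the top, in vivo FGOs (273 CPM) from in vivo GROs (255.4 CPM), and again between gonad-derived and iPSC-derived GROs (254 and 224 CPM).

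**Figure D3:**
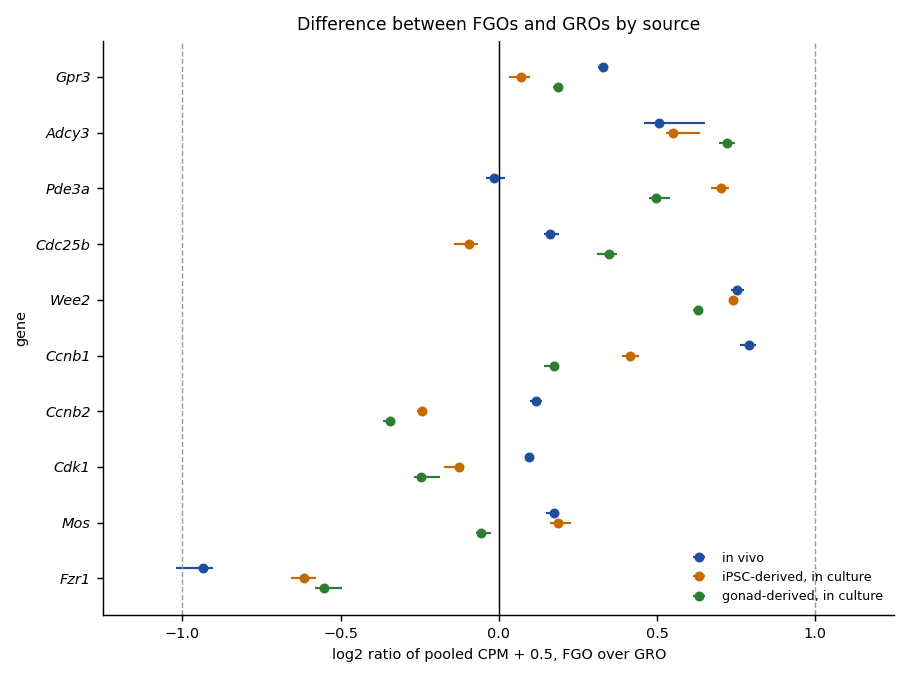
Log2 ratio of pooled CPM + 0.5, FGOs over GROs, for the 10 genes (rows) in vivo (blue), iPSC-derived (orange) and gonad-derived (green); points are the ratios, bars the range when any 1 oocyte is left out, and dashed lines 2-fold. Wee2 lies to the right and Fzr1 to the left for every source, Pde3a to the right in culture only, and Ccnb1 farther right in vivo (0.79) than in culture.

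**Figure D4:**
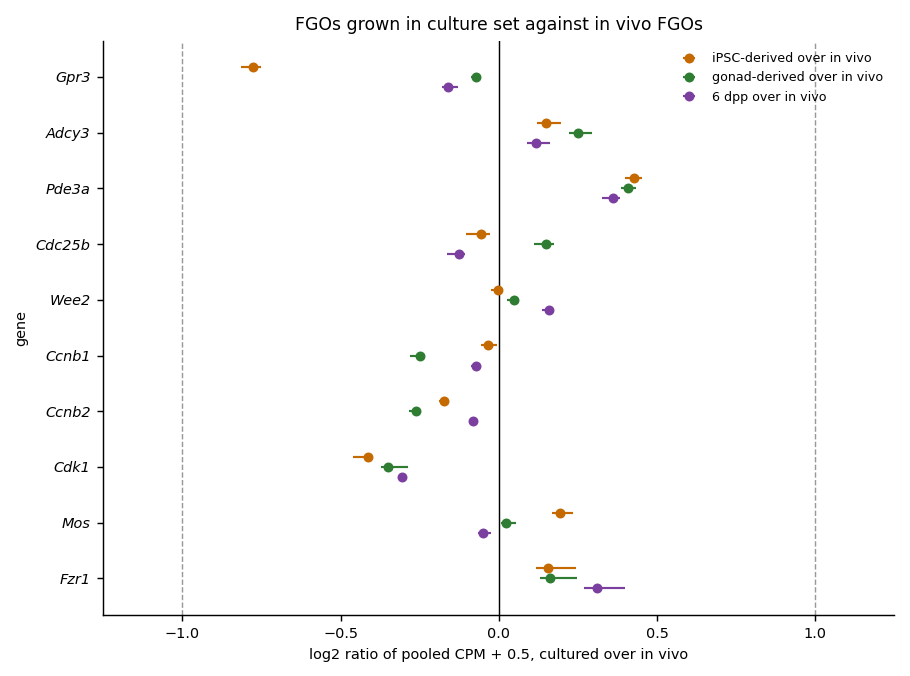
Log2 ratio of pooled CPM + 0.5 of iPSC-derived (orange), gonad-derived (green) and 6 dpp FGOs (purple) over in vivo FGOs, with bars for the range when any 1 oocyte is left out and dashed lines at 2-fold. Cdk1 is below 0 and Pde3a above 0 for all 3 groups, and Gpr3 is low for iPSC-derived oocytes (-0.78).

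The members were also set against each other over oocytes, as Pearson r of log2(CPM + 1), given as a description since oocytes share groups, depth scaling and library composition. Over all oocytes Wee2 and Fzr1 had r = -0.65, and -0.29 after group means were subtracted, with r below 0 inside each of the 7 groups. Ccnb1 and Fzr1 had -0.62, and -0.32 centred, again below 0 in each group. Wee2 and Ccnb1 had 0.71, and 0.34 centred. Much of the relation of Wee2 to Adcy3, 0.66 over all oocytes, lay between groups, since it was 0.10 centred. Pde3a and Cdk1 had -0.26 centred, or -0.44 without gonad-derived FGO 19, and were opposed in each group. The centred r of Cdk1 and Fzr1, 0.49, rested on that 1 oocyte and was -0.10 without it. The Wee2 to Fzr1 ratio per length, within an oocyte, had medians between 3.03 and 4.11 in the GRO groups and between 9.01 and 12.3 in the FGO groups.

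**Figure D5:**
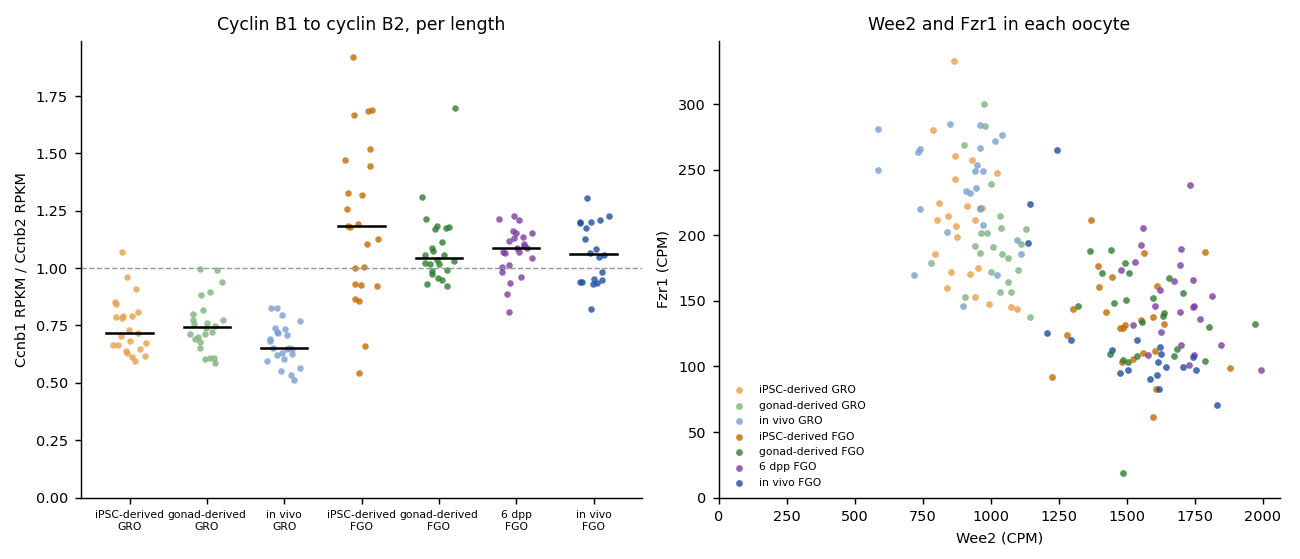
Left, the ratio of Ccnb1 to Ccnb2 RPKM in each oocyte (point) by group, with the group median (black bar) and a dashed line at 1; right, Wee2 against Fzr1 in CPM, 1 point per oocyte, coloured by group. The left panel shows 1 of 71 GROs and 65 of 92 FGOs above the line. The right panel shows GROs toward low Wee2 and high Fzr1, and FGOs toward high Wee2 and low Fzr1.

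The genes most like each member were sought by Pearson r of log2(CPM + 1) over all oocytes among 9815 other genes, and are given with the r left after group means were subtracted. Wee2 had the closest companions: Dnajb4 (0.94, centred 0.55), Plk4 (0.93, 0.62) and Fam13c (0.93, 0.54), Plk4 being the kinase that starts centriole duplication and Dnajb4 a heat shock protein co-chaperone. Cdk1 was most like Yipf1 (0.91, centred 0.94), Ftdc2 (0.89, 0.91) and Chchd2 (0.89, 0.92), but these rested largely on gonad-derived FGO 19, since without it, an alternative chosen after seeing the data, r was 0.71 (centred 0.51), 0.33 (0.20) and 0.31 (0.36). Ccnb1 was most like Kpna3 (0.86, centred 0.71), Mbd3l2 (0.84, 0.65) and Pex13 (0.83, 0.77), Kpna3 being a nuclear import receptor. Fzr1 was most like Lsm4 (0.85, centred 0.76), Khdc3 (0.85, 0.78) and Dus1l (0.85, 0.74), the last a tRNA dihydrouridine synthase-like gene and Khdc3 a member of the subcortical maternal complex. Without gonad-derived FGO 19 these were 0.84 (centred 0.67), 0.82 (0.68) and 0.81 (0.63). Pde3a was most like Mxd1 (0.82, centred 0.69), Ythdf3 (0.81, 0.72) and Afap1l2 (0.80, 0.72). Gpr3 was most like Lyplal1 (0.78, centred 0.05), Gpr180 (0.77, 0.34) and Nlrp4g (0.77, 0.29), with r smaller by more than 0.4 once centred. Adcy3 was most like Fbxw4 (0.71, centred 0.36), Rnmt (0.70, 0.30) and Ldb2 (0.70, 0.28). Mos was most like Stat6 (0.66, centred 0.62), Cdk7 (0.61, 0.55) and Elobl (0.61, 0.50). Ccnb2 was most like Fbxw14 (0.60, centred 0.50), Fbxw22 (0.57, 0.41) and Copg2 (0.56, 0.45), and Cdc25b had the weakest companions, Gtf3c2 (0.54, centred 0.55), Vps39 (0.53, 0.47) and Zscan18 (0.49, 0.50).

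Genes of the same pathways were taken from lists for cAMP and protein kinase A (23 of 24 genes found), CDK1 regulators (14 of 16), the APC/C (14 of 19), the MOS-MAPK cascade (7 of 8) and mitotic kinases and phosphatases (15 of 16). In growth in vivo 5 of 66 tested genes were higher in FGOs by 2-fold or more and 6 lower, against 23.7% of all genes in either direction. In iPSC-derived oocytes 6 were higher and 7 lower of 67, against 22.0% of all genes, and in gonad-derived oocytes 5 and 7 of 66, against 15.8%. The culture counts were near the shares over all genes.

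Within the cAMP list, of which 16 genes passed the filter in growth in vivo, 3 were higher and 3 lower in FGOs, and the median log2 ratio was -0.10 (all genes -0.11). Prkar2b, a regulatory subunit of protein kinase A, was at 14.7 CPM in in vivo GROs and 68.1 in FGOs (2.17). The catalytic subunit gene Prkacb went the other way, from 46.9 to 13.3 CPM. Adcy1, a further cyclase, was at 83.0 CPM in in vivo GROs and 20.1 in FGOs (-2.02), and at 29.2 and 5.53 CPM in iPSC-derived oocytes, while Adcy3 was higher in FGOs. Adcy8, a cyclase too, was higher in FGOs, at 6.54 CPM in in vivo GROs and 15.3 in FGOs (1.16), and at 9.53 and 18.8 CPM in iPSC-derived oocytes. Adcy6, of the same family, was lower in FGOs, at 6.23 CPM in in vivo GROs and 1.4 in FGOs (-1.82), and past 2-fold lower in FGOs of both culture sources and in both cultured GRO groups than in in vivo GROs, at levels under 3 CPM. Among GROs, Adcy1 was past 2-fold lower in iPSC-derived than in vivo oocytes (-1.49). Adcy2, also a cyclase, was at 19.7 CPM in iPSC-derived and 3.84 CPM in gonad-derived FGOs, against 0.0439 in 6 dpp and 0.0276 in in vivo FGOs. It exceeded 1 CPM in 22 of 24, 6 of 24, 0 of 24 and 0 of 20 of these oocytes. In GROs it was at 4.96 CPM (iPSC-derived), 3.70 CPM (gonad-derived) and 0.0494 CPM (in vivo). Pde4d, a further cAMP phosphodiesterase, was past 2-fold in IVG@FGO, at 13.3 against 5.61 CPM. Gnas, the Gs subunit gene, was at most 0.0803 CPM, and its counting rests on 1 randomly chosen transcript.

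Of 14 tested CDK1 regulators, Wee1, the somatic relative of Wee2, was lower in FGOs in each source. It was at 66.2 and 24.0 CPM in in vivo GROs and FGOs (-1.45), 46.6 and 9.01 CPM in iPSC-derived (-2.31), and 47.6 and 8.87 CPM in gonad-derived oocytes (-2.36). All 3 cultured FGO groups, 6 dpp oocytes at 8.29 CPM included, were past 2-fold below in vivo FGOs for Wee1, while the Wee2 ratios of the same groups were -0.00, 0.05 and 0.16. Ccnb3, the third B-type cyclin, was higher in FGOs, from 19.7 to 90.1 CPM in vivo (2.16), and gonad-derived GROs were past 2-fold above in vivo GROs, at 42.1 CPM. Ccnh, cyclin H of the CDK-activating kinase, was at 24.1 CPM in in vivo and 54.4 CPM in iPSC-derived GROs (1.16). Cdc25a passed 2-fold in iPSC-derived growth, from 13.7 to 31.5 CPM, whereas Cdc25b did not.

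In the APC/C list, of 14 tested genes, the E2 enzyme gene Ube2c was the 1 past 2-fold in growth in vivo, from 526 CPM in GROs to 255.2 CPM in FGOs (-1.04), and it was also lower in iPSC-derived (-1.67) and gonad-derived FGOs (-1.09). Cdc20, the other APC/C activator, had the opposite direction to Fzr1, at 112 and 232 CPM in iPSC-derived GROs and FGOs (1.04) and 115 and 177 CPM in vivo (0.62). The APC/C subunit gene Anapc2 passed 2-fold between iPSC-derived and in vivo FGOs, at 131 and 64.7 CPM. Among mitotic kinases, Mastl (Greatwall), which restrains the phosphatase that opposes CDK1, passed 2-fold in iPSC-derived growth, from 86.6 to 174 CPM. Ppp2cb, a catalytic subunit gene of that phosphatase, was lower in FGOs from each source, at 6.66 and 1.08 CPM in vivo. In cultured GROs it was under 5 CPM. The more abundant catalytic subunit gene Ppp2ca was lower in FGOs in vivo (42.6 and 26.8 CPM). It was higher in iPSC-derived FGOs (21.3 and 28.0 CPM) and level in gonad-derived oocytes (30.0 and 29.8 CPM). Of the MOS-MAPK list, with 6 or 7 genes tested depending on the comparison, Spdya alone passed 2-fold in any of them, and it stayed under 5 CPM in every group. 0 of 67 listed genes passed 2-fold between iPSC-derived and gonad-derived GROs, against 3.83% of all genes, and between iPSC-derived and in vivo FGOs 2 were higher and 4 lower of 67, against 14.5%.

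The spread of the members among oocytes of 1 group followed no single order. Over genes with at least 10 pooled CPM, the CV of Wee2, Ccnb1, Ccnb2, Cdk1 and Mos was below that of the median gene in all 7 groups, and that of Gpr3 in 6. Fzr1 was below it in 1 group only, and its CV ran from 17.0% to 40.6%. The least variable level was that of Cdk1 in in vivo FGOs, with a CV of 6.35%, and the most variable that of Adcy3 in in vivo GROs, 57.0%, at a pooled level of 8.13 CPM, below the floor of the gene set used for the comparison of CVs, in a group that holds the 1 oocyte at 26.7 CPM. iPSC-derived FGO 13, the third library from the top by genes outside its group's range, held the lowest Gpr3, Pde3a, Ccnb1 and Mos and the highest Cdk1 and Cdc25b of its group. Its Gpr3 was 39.9 CPM and its Mos 580.4 CPM.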

How the data were processed

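Single-oocyte Smart-seq2 libraries (poly(A) RNA, spike-ins added, single-end reads) had been aligned by the authors with STAR to GRCm38/mm10 plus spike-in sequences, a read with several placements going to 1 of them at random. The authors deposited raw counts per gene, made with QuasR from uniquely mapped reads over the exons of 1 randomly chosen transcript per gene, and an exonic length per gene (in bases); such libraries do not mark strand. All listed oocytes were used, without the size selection that the study made for its models.

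The members, pathway lists, markers and comparisons were chosen with earlier results of these data known. Counts were summed over the oocytes of a group and scaled to 1000000 counts of the summed libraries (pooled CPM), with exact Poisson 95% intervals, which cover counting error only because amplified reads are not independent molecules. Since no label ties oocytes to animals or cultures, no test across groups was made. Ratios are log2 of pooled CPM + 0.5 over pooled CPM + 0.5, and so understate differences of low genes, with a filter of CPM above 1 in at least 3 oocytes of the 2 groups and a size rule of 2-fold. RPKM used the deposited length. Genes named beside the members are, for each list and comparison, up to 3 past 2-fold with the largest ratios and 5 or more pooled CPM in the group where they are higher, from which those bearing on a member are printed, and, for each member, the 3 genes of highest r; Adcy2 levels per oocyte, Cdc20 in vivo, Spdya and Gnas were added after their values were seen. Ppp2ca was added in the same way. Alternatives were pseudocounts of 0.1 and 2 CPM, TMM factors (edgeR 4.0.16), medians, geometric means, 2000000 counts per oocyte, a size rule of 4-fold, no filter and leaving out oocytes. The ratio script was tested on simulated data. Symbols, coordinates and promoter windows came from RefSeq GRCm38.p6, in which 21907 of the 21950 genes had a symbol, and 8 of the 10 members had a promoter window; exon overlaps came from GENCODE. Python 3.11.15, numpy 2.4.6, pandas 2.3.3, scipy 1.17.1, matplotlib 3.10.9 and R 4.3.3 were used.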

Additional observations from a re-analysis of the deposited data

How the results depend on the processing

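The count of members past 2-fold was 0 in the other 10 comparisons under every alternative tried. In growth in vivo it was 0 and became 1, Fzr1 in each case, with the ratio of medians, with the ratio of geometric means and without in vivo FGOs 5, 7, 19 and 22, the oocytes nearest the GROs in earlier results of these data (Fzr1 ratio -1.20 on the log2 scale), and ranged from 0 to 1 when single oocytes were left out, the 1 being reached without in vivo FGO 5. Leaving out FGOs picked as nearest the GROs can widen a stage difference by that choice alone, so this case is no separate support. No paired analysis was possible because the numbers of the oocytes only name them and no test was made. Of the 110 ratios of the members, 16 changed sign under at least 1 alternative, all of them with a ratio of at most 0.10 in size, and the largest moves came with medians (0.316, Adcy3 in IVD@GRO) and without in vivo FGOs 5, 7, 19 and 22 (0.266, Fzr1 in growth in vivo). TMM scaling moved a ratio by at most 0.0781, and no scaling moved the median of all genes by over 0.1. Without the filter on low values, the share of all genes past 2-fold was lower in each comparison, 14.3% in place of 23.7% in growth in vivo, because more genes of low level were included. The counting interval of a ratio included 0 for Adcy3 in all 3 comparisons among GROs, for Pde3a in growth in vivo, IVP@FGO and IVD@FGO, for Wee2 between iPSC-derived and in vivo oocytes at both stages, for Ccnb2 in IVP@GRO, for Cdk1 in IVD@GRO and for Fzr1 in IVP@FGO. Intervals for the spread between animals or cultures cannot be given, since groups are single samples, and GRO and FGO groups may also differ in the animals or cultures they came from, which cannot be told apart from stage.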
